A study of Mus musculus with 15 samples.

Results

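The elastic fibre genes are the transcripts that encode the rubber-like fibres of the vessel wall and the enzymes that cross-link them. They were taken as all probe sets annotated to 10 listed symbols, of which 9 genes (Eln, Fbln1, Fbln2, Fbln5, Mfap4, Mfap5, Lox, Loxl1 and Emilin1) were represented, by 19 probe sets among the 45101 on the array. These are 9 of 18193 genes with a probe set of a single symbol. Fbn1, which encodes fibrillin-1, carries no probe set in the annotation used and was not analysed here.

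An elastic fibre has a core of cross-linked elastin laid down on a scaffold of microfibrils. Smooth muscle cells and fibroblasts secrete tropoelastin, the soluble precursor. Microfibril-associated glycoproteins, EMILIN-1 and fibulins gather it on the scaffold, and lysyl oxidases oxidise its lysines so that neighbouring chains join. In the aorta, elastin forms the concentric lamellae of the media that let the wall recoil with each heartbeat. Small vessels of the brain carry far less of it.

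Expression was measured on 15 Affymetrix mouse arrays, all from male mice of the C57BL6J strain aged 10 to 12 weeks. The 4 groups were aorta explants of Notch3 -/- mice (3 arrays, named 5558, 5559 and 6167), aorta explants of Notch3 +/- mice (3 arrays, 5556, 5561 and 6166), FACS-sorted brain cells labelled SMC/pericyte of Notch3 -/- mice (5 arrays, A, B, C, D and F) and the same cells of Notch3 +/- mice (4 arrays, E, G, H and I). Notch3 encodes a receptor of vascular smooth muscle cells and pericytes. Every mouse lacked at least 1 intact copy of it, and no wild-type arrays were analysed here. The design text names 5 Notch3 -/- and 4 Notch3 +/- mice for the brain arrays. For the aorta arrays the sources do not tell whether each is its own mouse, and a p-value between them therefore reflects array-to-array spread that may be technical.

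The values are probe-set intensities on a linear scale, brought by the authors to a common target of 150 per array, and 49.0 to 57.2% of values lay under 50. Notch3 itself read 80.1 to 146 in Notch3 -/- aorta against 362 to 453 in Notch3 +/- aorta, and 150 to 249 in Notch3 -/- brain cells against 2326 to 2805 in Notch3 +/- brain cells, so each array matched its genotype label, although the difference of -1.78 in aorta did not pass limma's adjustment (adjusted p = 0.135). The brain preparation held markers of other cells. Over the 9 brain arrays the summed intensity of 10 contractile markers was 14198 to 46604 and that of 10 pericyte markers 27401 to 61100, but 10 endothelial markers summed to 20662 to 34639 and 5 oligodendrocyte markers to 26679 to 43792. In the 6 aorta arrays the same sums were 49856 to 56642 for contractile, 18367 to 21734 for pericyte, 3119 to 4024 for endothelial and 336 to 790.5 for oligodendrocyte markers. Fibroblast markers (15 genes) summed to 53379 to 58142 in aorta and 8801 to 17596 in brain cells, and in each tissue 1 of the 15 stayed under 50 in every array (Slc6a13 in aorta, Dpt in brain cells). In such mixed RNA, fewer cells of a type and less RNA per cell cannot be told apart. A few bright genes rule the marker sums, as Cldn5 (10089 to 21344) and Mbp (19036 to 29570) did in brain cells. By sign, 9 of 10 endothelial and 8 of 10 pericyte markers were lower in aorta in each genotype. There 13 of 15 fibroblast and 8 of 10 contractile markers were higher. The pericyte list holds Notch3 itself, and Vtn, Higd1b and Atp13a5 stayed under 50 in every aorta array.

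Among the measured members, 4 have an entry in the RefSeq promoter table (Fbln1, Fbln2, Fbln5 and Emilin1; build GRCm38.p6). The promoters of Fbln5 and Fbln2 are shown because these members of 1 protein family, chosen after their values were seen, were the most and the least different between aorta and brain cells of the 4. Where the table lists several starts, the one nearest the gene's outer 5′ end was used. Each holds 250 bases before the annotated start and 50 after it, read 5′ to 3′ on the gene's strand, and capitals mark GC boxes (GGGCGG, searched on both strands). The Fbln5 promoter lies on the minus strand at chr12:101819070-101819369 and the Fbln2 promoter on the plus strand at chr6:91212514-91212813.
Fbln5: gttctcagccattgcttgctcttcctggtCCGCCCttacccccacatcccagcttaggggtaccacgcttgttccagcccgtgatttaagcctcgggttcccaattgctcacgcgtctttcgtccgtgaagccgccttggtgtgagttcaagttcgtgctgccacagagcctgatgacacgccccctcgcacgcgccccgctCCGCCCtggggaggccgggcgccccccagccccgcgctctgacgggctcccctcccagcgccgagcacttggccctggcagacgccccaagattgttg
Fbln2: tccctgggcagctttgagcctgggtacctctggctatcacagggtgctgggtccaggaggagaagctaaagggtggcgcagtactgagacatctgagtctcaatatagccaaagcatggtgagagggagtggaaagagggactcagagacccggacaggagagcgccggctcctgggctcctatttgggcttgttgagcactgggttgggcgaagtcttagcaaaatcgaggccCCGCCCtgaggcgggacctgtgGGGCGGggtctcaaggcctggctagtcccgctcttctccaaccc
Each of these windows held 2 GC boxes, a motif found in 35.7% of the 32851 promoters of the table, and the windows of Fbln1 and Emilin1 held none. The core letters of the promoter box bound by TBP, TATAAA, present in 13.6% of promoters, were in none of the 4 windows on either strand. Neither was GTGGGAA, a site of RBPJ (the DNA-binding partner of Notch receptors), which 6.38% of promoters hold. The AP-1 letters TGACTCA, present in 5.20% of promoters, were absent from them too. No match says only that these letters are not in these windows.

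Elastic fibre transcripts were far higher in aorta than in sorted brain cells, in both genotypes. On the log2(intensity + 16) scale the differences at the main probe set of each gene (the one with the highest mean) ran from 0.98 for Fbln2 to 6.91 for Mfap4 among Notch3 -/- arrays, and from 0.68 for Fbln2 to 6.96 for Mfap4 among Notch3 +/- arrays. Their median was 3.21 in Notch3 -/- arrays and 3.07 in Notch3 +/- arrays, beside a median of -0.11 and -0.07 over all 22519 probe sets tested in each comparison. Past an adjusted p of 5% by limma, 15 of 15 tested probe sets were higher in aorta in Notch3 -/- arrays, where 28.9% of all probe sets tested were called higher, and 13 of 15 in Notch3 +/- arrays, where 25.2% were. None was lower, while 33.6% of all probe sets were in Notch3 -/- arrays and 26.5% in Notch3 +/- arrays. The arrays of the tissues did not overlap for 15 of the 15 probe sets in Notch3 -/- arrays (28.3% of all tested were free of overlap with aorta higher) and for 13 of the 15 in Notch3 +/- arrays (27.6%). The remaining 4 of the 19 probe sets were too dim to be tested in either comparison. Of the 15, 5 had a brain mean under the brightness filter and entered only through their aorta level, so that they had to differ. They were Mfap4 and the second probe sets of Eln, Fbln1, Mfap5 and Loxl1. The 2 comparisons share no arrays. Tissue, cell sorting and RNA extraction (a column kit for brain cells, Trizol first for aorta) changed together and cannot be told apart.

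**Figure D1:**
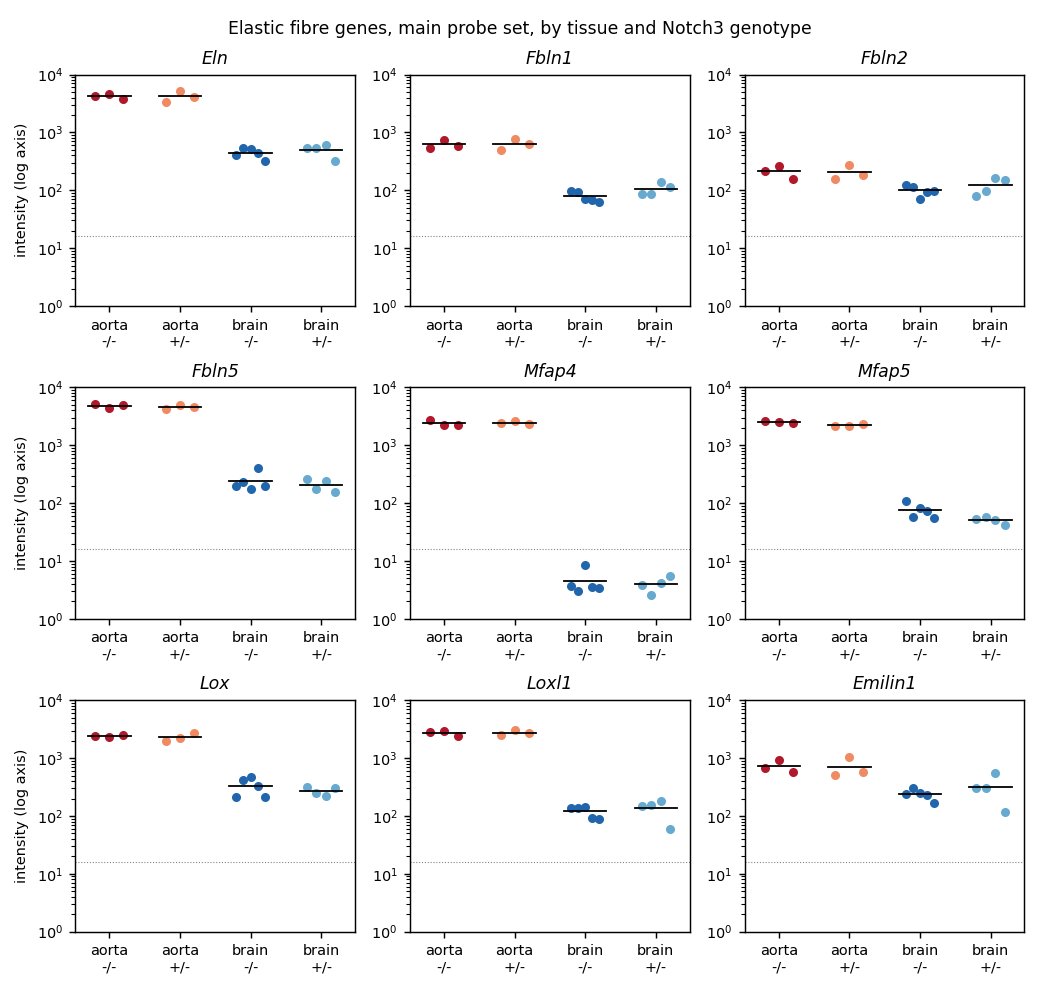
Probe-set intensity (log axis) of the 9 measured genes at their main probe set; each point is 1 array, black lines are group means, and the dotted line marks the pseudocount of 16. All 6 aorta arrays lie above all 9 brain arrays for each gene except Fbln2 and Emilin1, and Mfap4 lies under 10 in every brain array.

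Elastin itself showed the pattern of the group. Eln, which encodes tropoelastin, read 4296, 4600 and 3713 in Notch3 -/- aorta and 3387, 5281 and 4051 in Notch3 +/- aorta. In brain cells it read 408, 533, 509, 445 and 323 in Notch3 -/- arrays and 532, 537, 598 and 320 in Notch3 +/- arrays. The tissues did not overlap, while within each tissue the genotypes did. The aorta level was 9.27 times the brain level in Notch3 -/- arrays (log2 3.21, SE 0.16, limma adjusted p = 1.81e-09) and 8.38 times in Notch3 +/- arrays (log2 3.07, SE 0.23, adjusted p = 1.85e-06). The second Eln probe set read 370 to 578 and 294 to 497 in Notch3 -/- and +/- aorta, and no more than 16.5 in any brain array (log2 4.48 and 3.93).

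The microfibril-associated genes held both the largest differences and one of the small ones. Mfap4 encodes a fibrinogen-domain glycoprotein that binds elastin and fibrillin-1. It read 2779, 2274 and 2275 in Notch3 -/- aorta and 2469, 2600 and 2332 in Notch3 +/- aorta. Its brain values were 3.71, 2.98, 8.37, 3.59 and 3.46 in Notch3 -/- arrays and 3.80, 2.61, 4.15 and 5.44 in Notch3 +/- arrays, at the bottom of the scale. The differences of 6.91 (SE 0.16, limma adjusted p = 1.83e-12) and 6.96 (SE 0.16, adjusted p = 1.38e-09) are set on the brain side by the pseudocount and understate the ratio. Mfap4 passed the brightness filter only through its aorta level and so had to differ, whatever its p-values.

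Mfap5 encodes MAGP-2, a small glycoprotein of microfibrils. Its main probe set read 2655, 2494 and 2473 in Notch3 -/- aorta against 108, 58.6, 82.2, 72.6 and 54.98 in Notch3 -/- brain cells, a 28.6-fold difference (log2 4.84, SE 0.18, limma adjusted p = 1.1e-10). In Notch3 +/- arrays it read 2167, 2173 and 2295 in aorta against 52.8, 57.3, 50.6 and 41.6 in brain cells, a 33.6-fold difference (log2 5.07, SE 0.16, adjusted p = 5.25e-09). The other Mfap5 probe set was as bright in aorta (2026 to 2421) and dimmer in brain cells (1.82 to 54.1).

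Emilin1 encodes a glycoprotein found at the interface of elastin and microfibrils, and it was the member with the most brain signal relative to aorta after Fbln2. It read 680, 916 and 564 in Notch3 -/- aorta against 237, 301, 247, 235 and 169 in Notch3 -/- brain cells (log2 1.53, SE 0.19, limma adjusted p = 9.77e-06). In Notch3 +/- arrays it read 513, 1047 and 577 in aorta against 304, 302, 544 and 117 in brain cells (log2 1.23, SE 0.41, adjusted p = 0.0268). There the groups overlapped, since brain array H (544) lay above aorta array 5556 (513), and the call was lost without brain array G (adjusted p = 0.0509) or aorta array 5561 (0.124). The second Emilin1 probe set was under 31 in every array and was not tested.

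The 3 fibulins differed among themselves. Fbln5, whose product tethers tropoelastin to cells and microfibrils and is needed for elastic fibre formation in mice, read 5076, 4321 and 4976 in Notch3 -/- aorta and 4224, 4868 and 4549 in Notch3 +/- aorta. In brain cells it read 200, 231, 175, 398 and 201 in Notch3 -/- arrays and 260, 173, 240 and 158 in Notch3 +/- arrays. The difference was 4.28 (SE 0.21, limma adjusted p = 1.52e-09) in Notch3 -/- and 4.37 (SE 0.19, adjusted p = 3.93e-08) in Notch3 +/- arrays, or 19.4 and 20.7 times.

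Fbln2, a fibulin of basement membranes and elastic tissue, was the member with the smallest difference at its main probe set. It read 217, 264 and 158 (158.5 before rounding) in Notch3 -/- aorta against 124, 115, 70.2, 92.5 and 97.3 in Notch3 -/- brain cells, with no overlap (log2 0.98, SE 0.20, limma adjusted p = 7.44e-04). In Notch3 +/- arrays it read 158, 273 and 181 in aorta against 79.2, 96.8, 162 and 153 in brain cells. Brain array H lay above aorta array 5556 there, and the difference of 0.68 (SE 0.27, 95% interval 0.09 to 1.27) did not pass (adjusted p = 0.0513). It passed without brain array H (0.0265) or I (0.0373) and without aorta array 5556 (0.0494).

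Fbln1, the fibulin-1 gene, was seen differently by its 3 probe sets. At the main one it read 533 to 739 in Notch3 -/- and 496 to 767 in Notch3 +/- aorta, and 63.6 to 98.6 in Notch3 -/- and 85.2 to 137 in Notch3 +/- brain cells (log2 2.75 and 2.42). At the next the differences were 3.75 in both genotypes. At the third, which read 88.3 to 132 over all aorta arrays and 21.9 to 78.4 over all brain arrays, the difference was 0.59 in Notch3 -/- (limma adjusted p = 0.00555) and 0.78 in Notch3 +/- arrays (adjusted p = 0.0512, not past 5%; 0.0337 without brain array E and 0.0291 without I). The sources used here do not say which transcripts each probe set reads.

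The cross-linking enzymes were both higher in aorta. Lox encodes lysyl oxidase, the copper-dependent enzyme that starts cross-linking of elastin and collagen. It read 2345 to 2537 in Notch3 -/- and 2008 to 2711 in Notch3 +/- aorta, and 215 to 473 in Notch3 -/- and 217 to 316 in Notch3 +/- brain cells. The difference was 2.89 (SE 0.23) in Notch3 -/- arrays and 3.03 (SE 0.18) in Notch3 +/- arrays, and the second Lox probe set gave 3.44 and 3.05. The limma adjusted p of these 4 differences was at most 3.89e-07.

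Loxl1 encodes the lysyl oxidase-like enzyme that is targeted to elastic fibres and maintains them in adult mice. It read 2794, 2899 and 2455 in Notch3 -/- aorta against 138, 138, 146, 93.7 and 89.9 in Notch3 -/- brain cells (log2 4.34, SE 0.17, limma adjusted p = 2.02e-10). In Notch3 +/- arrays it read 2483, 3121 and 2705 in aorta against 147, 152, 183 and 60.5 in brain cells (log2 4.28, SE 0.29, adjusted p = 8.16e-07). The tissues did not overlap at either of its probe sets.

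**Figure D2:**
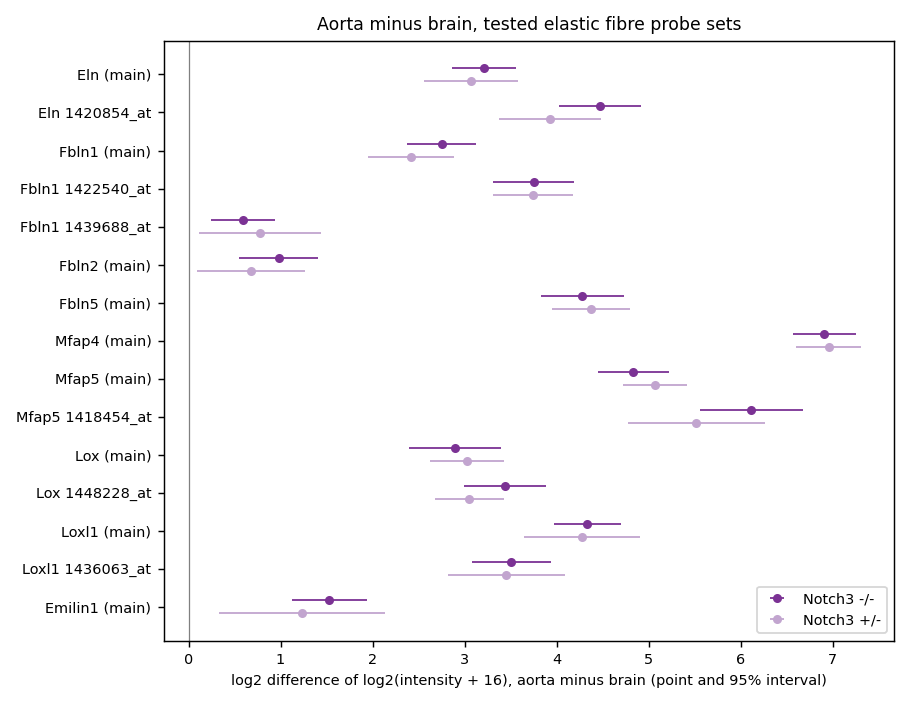
Log2 difference, aorta minus brain, of the 15 tested elastic fibre probe sets with 95% intervals, for Notch3 -/- arrays (dark) and Notch3 +/- arrays (light). The points run from 0.59 at the dimmest Fbln1 probe set to 6.96 at Mfap4, and the intervals of the genotypes overlap at each probe set.

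None of the elastic fibre genes tested passed the threshold between Notch3 -/- and Notch3 +/- brain cells. By limma 0 of 10 tested probe sets passed an adjusted p of 5%, beside 0.142% of all 22519 probe sets tested, and 0 had an unadjusted p under 0.05. The other 9 probe sets, Mfap4 among them, were too dim in brain cells to be tested. The 8 tested genes had a median difference, Notch3 -/- minus +/-, of -0.11 at their main probe sets, beside 0.01 over all probe sets tested. The differences ran from -0.35 for Fbln1 to 0.43 for Mfap5, and the genotypes overlapped at all 10 probe sets, while 3.3% of all probe sets tested were free of overlap.

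The intervals show what 5 against 4 arrays could resolve. For Eln the difference was -0.14 (95% interval -0.57 to 0.29), for Loxl1 -0.08 (-0.64 to 0.47) and for Lox 0.22 (-0.28 to 0.73). Emilin1 had the widest interval (-0.91 to 0.43) because brain arrays H and I of the Notch3 +/- group stood far apart. Mfap5 had the smallest p, with 75.4 ± 21.5 in Notch3 -/- cells (SD, n = 5) and 50.6 ± 6.60 in Notch3 +/- cells (SD, n = 4; log2 0.43, SE 0.21, limma adjusted p = 0.549), while its dimmer probe set averaged 18.9 ± 11.2 and 34.3 ± 22.5, the other way round, and was not tested. The second Lox probe set likewise had the opposite sign (-0.20) to the main one. Beside these genes, fibroblast markers summed to 12275 to 17596 in Notch3 -/- and 8801 to 12528 in Notch3 +/- brain cells, and contractile markers to 14198 to 22652 in Notch3 -/- and 27866 to 46604 in Notch3 +/- brain cells. Their part in the members' values was not tested.

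In aorta likewise no elastic fibre gene passed between the genotypes. By limma 0 of 17 tested probe sets passed (0% of all 22519 did), and 1 had an unadjusted p under 0.05. The median difference over the 9 main probe sets was 0.06, beside 0.00011 over all probe sets tested. The 17 differences ran from -0.15 (second Loxl1 probe set) to 0.33 (second Eln probe set, 95% interval -0.15 to 0.82). The main Eln probe set differed by 0.01 (-0.33 to 0.34), Mfap4 by -0.02 (-0.23 to 0.19), Loxl1 by -0.03 (-0.25 to 0.20) and Fbln5 by 0.07 (-0.11 to 0.26). For Emilin1 (-0.53 to 0.65) and Fbln2 (-0.44 to 0.57) the intervals were wider.

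The single probe set with an unadjusted p under 0.05 in aorta was the main one of Mfap5. Its 3 Notch3 -/- arrays (2655, 2494 and 2473) lay above its 3 Notch3 +/- arrays (2167, 2173 and 2295), a difference of 1.15-fold (log2 0.20, 95% interval 0.05 to 0.35, limma adjusted p = 0.999). The second Mfap5 probe set was ordered the same way, at 2421, 2229 and 2214 against 2026, 2088 and 2147 (log2 0.13, adjusted p = 0.999). Of all probe sets tested 4.72% were free of overlap in this direction, so the order of the arrays does not set Mfap5 apart.

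The genotype effect was not shown to differ between brain cells and aorta for any member. The difference of the 2 effects, brain minus aorta, lay between -0.33 (Fbln1) and 0.23 (Mfap5) over the 9 main probe sets. Of the 15 probe sets tested here 5 were below the brightness filter in brain cells (Mfap4 and the second probe sets of Eln, Fbln1, Mfap5 and Loxl1), so that their brain effect is one of dim readings. The lowest value, -0.60 at the second Mfap5 probe set, rests on brain readings of 1.82 to 54.1. By limma 0 of 15 tested probe sets passed (0.0178% of all probe sets did) and 0 had an unadjusted p under 0.05. The 95% intervals differed in width between members, with a median half-width of 0.67, and ran from -0.27 to 0.73 for Mfap5 and from -1.30 to 0.71 for Emilin1.

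**Figure D3:**
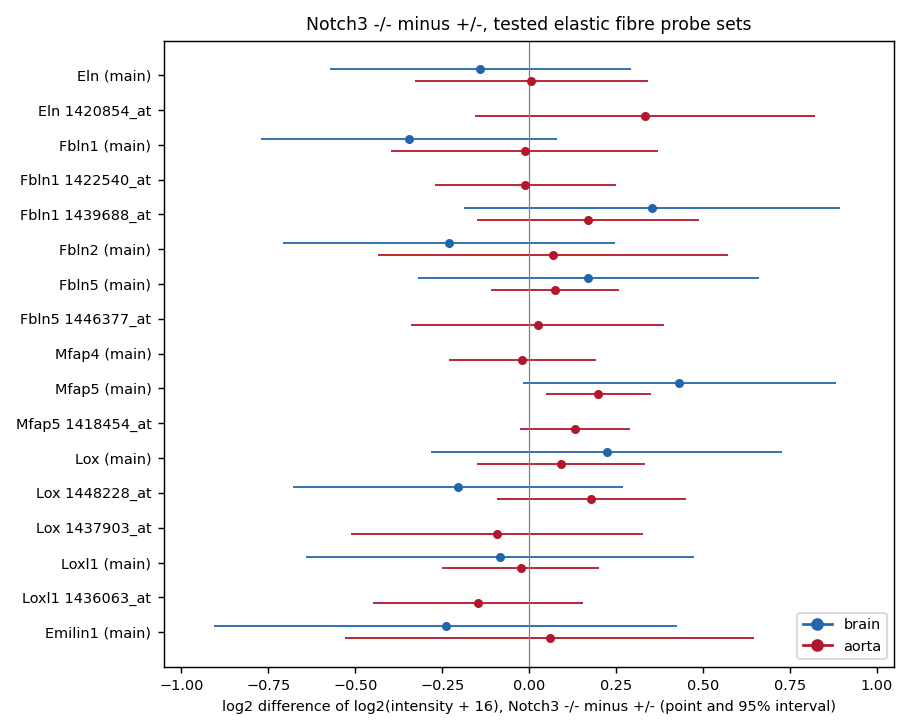
Log2 difference, Notch3 -/- minus +/-, of the tested elastic fibre probe sets with 95% intervals, in brain cells (blue) and aorta (red). The brain intervals all cross 0, as do those in aorta except the interval of the main Mfap5 probe set (0.05 to 0.35), which did not pass after adjustment.

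Within groups, the main probe sets of Eln, Loxl1 and Emilin1 varied together from array to array in both tissues, and that of Fbln2 with them in aorta. Their log2 values were set against their own group's mean, so that neither tissue nor genotype enters. Over the 6 aorta arrays Pearson's r was 0.98 for Eln with Loxl1, 0.95 for Eln with Emilin1 and 0.95 for Loxl1 with Emilin1, with a Spearman rho of 1 for each. There Fbln2 gave an r of 0.95 with Eln, 0.98 with Loxl1 and 0.97 with Emilin1 (rho 0.94 for each), whereas its r with Eln over the brain arrays was -0.28. Over the 9 brain arrays r was 0.89, 0.91 and 0.91 for the same pairs (rho 0.90, 0.92 and 0.80). In all, 36 pairs of members were compared in each tissue, and the median r was 0.30 in aorta and 0.01 in brain cells. The pairs named are the closest of these, chosen after their values were seen. These are descriptions over few arrays, whose points share everything that differs between preparations.

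The arrays behind these values differed by tissue. In aorta, arrays 5561 and 5559 were the highest of their groups at the main probe sets of Eln (5281 and 4600), Loxl1 (3121 and 2899) and Emilin1 (1047 and 916). They were likewise at those of Fbln2 (273 and 264) and Fbln1 (767 and 739). At the second Eln probe set both were instead the lowest of their groups. There 5561 read 294 against 407 and 497, and 5559 read 370 against 578 and 571. At the second probe sets of Fbln1 and Loxl1, 5561 was the highest of its group (853 and 343) and 5559 was not (696 and 258). The outermost arrays, 5561 and 5556, belong to the Notch3 +/- group. Over the other 4, r was 0.99 for Eln with Loxl1, 0.92 for Eln with Emilin1 and 0.88 for Loxl1 with Emilin1. Here and below, group means were not taken anew after arrays were left out. The arrays left out therefore still act on these r values, and a shift between groups can enter them. In brain cells, array I of the Notch3 +/- group was the lowest of its group for Eln (320), Loxl1 (60.5) and Emilin1 (117), and array F was the lowest Notch3 -/- array for all 3 (323, 89.9 and 169). Without I and F, r over the other 7 brain arrays fell to 0.55 for Eln with Loxl1, 0.69 for Eln with Emilin1 and 0.64 for Loxl1 with Emilin1, so the brain relation rests largely on those arrays. Fbln1 and Fbln2 also varied together in brain cells (r 0.85), apart from the other genes.

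Marker sums of several cell types moved with these arrays. In brain cells the summed contractile markers were lowest in I (27866) and highest in H (46604) of the Notch3 +/- group, and lowest in F (14198) and highest in B (22652) of the Notch3 -/- group, which is the order of Emilin1 at both ends. Their r was 0.81 with Emilin1, 0.78 with Eln and 0.59 with Loxl1, which without I and F became 0.78, 0.51 and 0.0798. Summed fibroblast markers gave 0.78 with Emilin1, 0.90 with Eln and 0.72 with Loxl1. Without I and F they gave 0.42, 0.64 and 0.17, so for Loxl1 both relations rest on those arrays. Array H was also the highest Notch3 +/- array in the pericyte (61100), endothelial (34639), astrocyte (24658), oligodendrocyte (38312) and macrophage (16798) sums. It was not so in the fibroblast, neuron and adipocyte sums. Of the contractile markers Acta2 alone read 30846 in H, while Tagln, Mylk and Lmod1 were not highest there. In aorta the sum of the 10 endothelial markers was highest in 5561 (4024) and 5559 (3711). Vwf, at 1927 and 1892 there, made up much of it and was the only marker of the list highest in both. Cdh5, Kdr, Flt1 and Emcn were the lowest of their groups in both arrays. The r of the endothelial sum with Eln, Loxl1 and Emilin1 was 0.93 to 0.97, and the macrophage sum gave 0.82 to 0.92. The sum of the 7 adipocyte markers was lowest in 5559 (3441) and 5561 (4374) of their groups. Singly, Cidec, Lep and Retn were lowest in 5558 among the Notch3 -/- arrays. The adipocyte sum ran the other way, with an r of -0.96 to -0.90. The contractile markers gave 0.48 to 0.65, and 0.72 to 0.93 without 5561 and 5556. The part of these cell types in the members' spread was not tested.

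**Figure D4:**
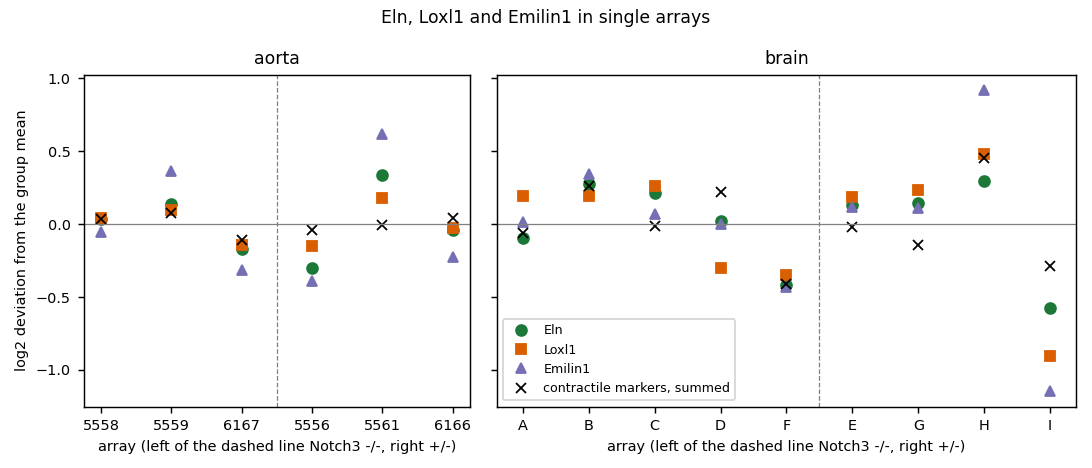
Log2 deviation of Eln, Loxl1 and Emilin1 from their group mean in each aorta array (left) and brain array (right), with that of the summed contractile markers (crosses). Arrays 5561 and 5559 are the highest aorta arrays of their groups, and brain arrays I and F are the lowest of theirs.

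Other genes of microfibril and elastic fibre assembly were split between the tissues. Of 21 listed genes 17 were tested. In Notch3 -/- arrays 11 were higher and 5 lower in aorta (median 0.62), and in Notch3 +/- arrays 9 were higher and 4 lower (median 0.88). Over all probe sets 28.9% were higher and 33.6% lower in Notch3 -/- arrays, and 25.2% higher and 26.5% lower in Notch3 +/- arrays, so the counts of lower genes are about those of the background. Versican (Vcan), a proteoglycan that binds fibulins and fibrillin, was the strongest, averaging 1608 ± 132 in Notch3 -/- aorta against 44.5 ± 12.8 in Notch3 -/- brain cells (SD, n = 3 and 5; log2 4.77, limma adjusted p = 1.49e-10) and differing by 5.08 in Notch3 +/- arrays, where its brain mean of 37.1 lay under the brightness filter. Ltbp1, a latent TGF-beta binding protein of microfibrils, differed by 3.92 in Notch3 -/- and 3.74 in Notch3 +/- arrays, and Thsd4, an ADAMTS-like protein that binds fibrillin-1, by 3.69 and 2.91.

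Some genes of this list ran the other way. Hmcn1 passed the filter only through its brain level and so had to differ. This gene, which encodes the large fibulin-related protein hemicentin-1, was lower in aorta, at 22.4 ± 5.74 in Notch3 -/- aorta against 775 ± 137 in Notch3 -/- brain cells (log2 -4.36, limma adjusted p = 2.83e-10) and with a difference of -3.84 in Notch3 +/- arrays (adjusted p = 2.25e-07). Mfap2, which encodes MAGP-1, the close relative of Mfap5, is named after its values were seen. It averaged 42.3 ± 4.15 in Notch3 -/- aorta against 120 ± 47.9 in Notch3 -/- brain cells, and was lower in aorta in both genotypes (log2 -1.14, limma adjusted p = 0.00322, and -1.15, adjusted p = 0.0246), where Mfap5 was higher by 4.84 and 5.07.

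Of 13 listed genes for cross-linking and for copper, procollagen and tropoelastin handling 9 were tested. In Notch3 -/- arrays 5 were higher and 1 lower in aorta (median 0.65), and in Notch3 +/- arrays 4 were higher and 0 lower (limma; median 0.25, with 5 of 9 at an unadjusted p under 0.05). Against the background shares of 28.9% higher and 33.6% lower in Notch3 -/- and 25.2% and 26.5% in Notch3 +/- arrays, these are counts over 9 genes only. Pcolce2, an enhancer of procollagen processing, was higher by 2.83 in Notch3 -/- and 2.37 in Notch3 +/- arrays, and the collagen chaperone Serpinh1 by 2.11 and 1.67. The lysyl oxidase relative Loxl3 was higher by 0.96 and 0.97, less than Lox or Loxl1. Atp7a, the copper pump that supplies lysyl oxidases, was lower in aorta in Notch3 -/- arrays (log2 -0.83, limma adjusted p = 1.21e-04), and its difference of -0.51 in Notch3 +/- arrays did not pass (adjusted p = 0.13).

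Of 14 listed elastin-degrading proteases and their inhibitors 11 were tested. In Notch3 -/- arrays 8 were higher and 2 lower in aorta (median 0.88), and in Notch3 +/- arrays 6 were higher and 2 lower (median 1.10), beside 28.9% higher and 33.6% lower over all probe sets in Notch3 -/- and 25.2% and 26.5% in Notch3 +/- arrays. Cathepsin L (Ctsl) was higher by 2.29 in Notch3 -/- and 2.38 in Notch3 +/- arrays, and the gelatinase Mmp2 by 2.53 and 3.23. The metalloproteinase inhibitor Timp4 was lower in aorta, averaging 93.4 in Notch3 -/- aorta against 1640 in Notch3 -/- brain cells (log2 -3.84, limma adjusted p = 2.44e-08; -2.56 in Notch3 +/- arrays).

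**Figure D5:**
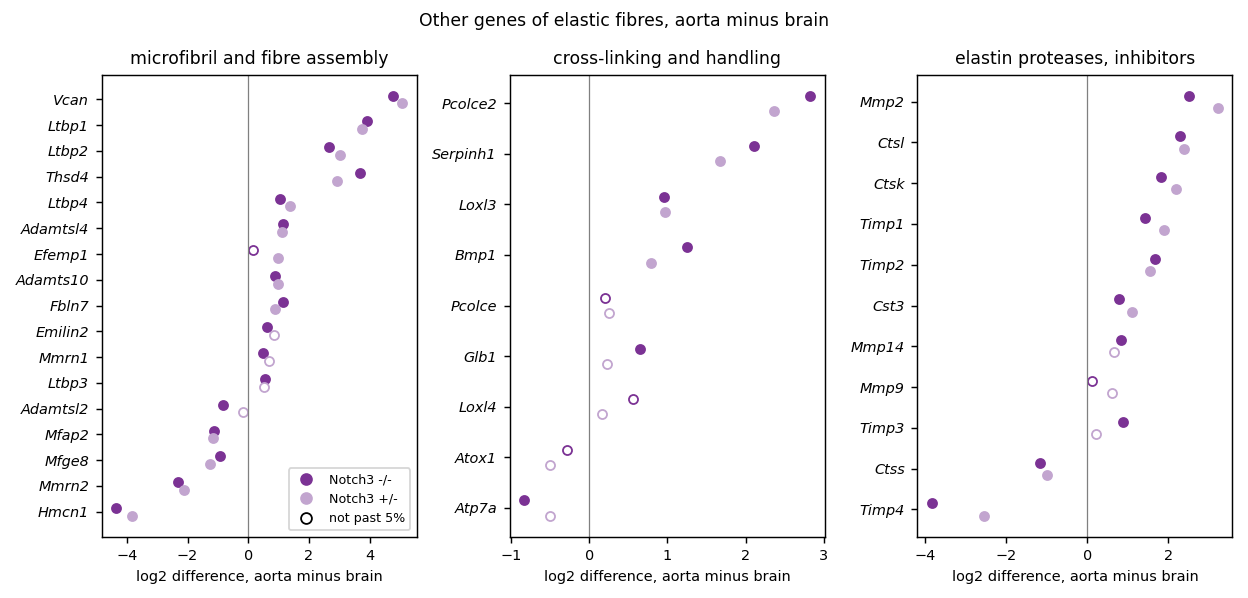
Log2 difference, aorta minus brain, of the tested genes of the 3 wider lists, for Notch3 -/- (dark) and Notch3 +/- (light) arrays; open points did not pass an adjusted p of 5%. Vcan at 4.77 and 5.08 is the highest point pair and Hmcn1 at -4.36 and -3.84 the lowest.

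Between genotypes no gene of these 3 lists passed in either tissue by limma. An unadjusted p under 0.05 was found in brain cells for 3 of 16 assembly genes, 1 of 9 handling genes and 1 of 11 proteases and inhibitors, and in aorta for 2 of 16, 1 of 9 and 1 of 11. Over all probe sets tested 9.39% had such a p in brain cells and 4.35% in aorta. The list counts are over few genes and were not tested against these shares. In brain cells the smallest p belonged to Efemp1, the fibulin-3 gene, at 725 ± 151 in Notch3 -/- cells (SD, n = 5) and 331 ± 157 in Notch3 +/- cells (SD, n = 4; log2 1.20, SE 0.28, adjusted p = 0.157). Thsd4 (log2 -0.71, adjusted p = 0.267) and Serpinh1 (-0.57, 0.324) had the next. In aorta the smallest belonged to Timp4, at 93.4 in Notch3 -/- and 197 in Notch3 +/- arrays (log2 -0.97, limma adjusted p = 0.279), and Pcolce2 (0.44, 0.744).

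The genes whose profile was most like that of Eln were found by the root mean square difference of mean-centred log2 values over the 15 arrays, among 11972 other genes. They were the actin-severing protein gelsolin (Gsn, 0.19), Synpo (0.19), Rasl11b (0.23), Tspan11 (0.24) and the integrin subunit Itga8 (0.25). By the same measure the nearest member to Eln was Lox (0.37), followed by Fbln1 (0.39), and Mfap4 was the farthest (1.88). Nearest to the mean profile of the 9 members were Slit3 (0.15), Igfbp5 (0.22), Synpo2 (0.23), Csrp2 (0.23) and Tspan11 (0.25). In Notch3 -/- and +/- brain cells Slit3 (means 5.22 and 7.11) and Tspan11 (8.54 and 9.99) lay under the pseudocount, which sets their brain side. Over arrays of both tissues this measure largely follows the size of the difference between aorta and brain cells.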

How the data were processed

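RNA of aorta explants and of sorted brain cells was labelled and hybridised to Affymetrix mouse arrays. The authors deposited 1 intensity per probe set, scaled to a target of 150 and handled in Rosetta Resolver, as the design text of the series states. The sources used here do not give how probes were summarised or corrected for background. Brain and aorta RNA was extracted by different routes, per the labels' protocols. Probe sets were named from the platform annotation (34958 with 1 symbol, 932 with several, 9211 with none). Of those with 1 symbol, 34754 were matched by gene identifier to RefSeq and took the symbol given there, changed or not.

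Values were taken as log2(intensity + 16), which shrinks the differences of dim probe sets. After removal of 64 controls, probe sets at or above the median mean of the arrays in each fit were tested (22519 per comparison) by two-sided moderated tests of limma 3.58.1 (R 4.3.3; the prior variance followed mean intensity), adjusted after Benjamini and Hochberg over all of them, with calls at 5%. Means are of linear intensity; the number of arrays limits the precision. The fits were tested on simulated data. Replicates of a group correlated at r of 0.932 to 0.981 over probe sets. Groups came from sample titles, which share no replicate names across groups.

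Named genes were all members, Notch3, up to 4 genes per wider list by smallest p in each comparison, and the 5 nearest profiles. The members, lists and alternatives (pseudocount, filter, normalization, trend, weights, arrays in the fit, aorta name series, each array left out) were chosen with earlier results of these data known. Marker lists of astrocytes, neurons, macrophages, adipocytes and mesothelium were also measured: over aorta and brain arrays their sums were 2005 to 3326 and 9507 to 24658, 179 to 781 and 606 to 1674, 3549 to 4961 and 9174 to 17355, 3441 to 7629 and 62.4 to 157, and 96.4 to 455 and 70.2 to 292.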

Additional observations from a re-analysis of the deposited data

Results flagged for a closer look

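Of 38 brain groups of values checked for a single array far from the rest, 2 were found, where chance gives about 1 in 20. Mfap4 read 8.37 in Notch3 -/- brain array C, against 2.98 to 3.71 in the other 4 arrays of that group, all far below the pseudocount. The second Loxl1 probe set read 31.5 in Notch3 +/- brain array I, against 5.82 to 8.34 in the other 3, although the main Loxl1 probe set was lowest in that array (60.5). Neither probe set was tested between genotypes in brain cells, and the cause was not tested.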

How the results depend on the processing

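No paired analysis was possible because the groups share no replicate names. A block of the aorta arrays by name series (55xx and 61xx), which pairs no arrays, was run and called 0 members, with differences as before. Under 17 alternatives all 15 tested probe sets remained higher in aorta in Notch3 -/- arrays. In Notch3 +/- arrays 12 to 15 were, with Emilin1, Fbln2 and the third Fbln1 probe set at the threshold: Fbln2 passed with a pseudocount of 50 (0.56, limma adjusted p = 0.0487), array weights (0.76, 0.0156) or all 15 arrays in the fit (0.68, 0.026). Leaving out single arrays gave 0.47 to 0.83 for Fbln2, 0.85 to 1.54 for Emilin1 and 0.50 to 0.93 for that Fbln1 probe set. Between genotypes no member passed under any alternative run (lowest limma adjusted p 0.206 in brain cells and 0.84 in aorta). With all 15 arrays in the fit 1 gene of the wider lists passed higher and 1 lower in Notch3 -/- brain cells, where 0 did otherwise; that setting pools the spread of both tissues. Probe sets not above the filter are limited by signal over background.

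Signs of Notch3 -/- minus +/- in aorta turned for Fbln1 (0.00323 and 0.00486 at its brighter probe sets with median centring, 0.0124 with array weights, 0.0239 within the arrays named 55xx), Mfap4 (0.0139 with array weights), Loxl1 (0.0135 with array weights, 0.0318 within 55xx) and the second Fbln5 probe set (-0.0852 within 55xx). For the difference of effects they turned for the second Fbln1 probe set (0.00722 with a pseudocount of 50, 0.0173 with quantile normalization, 0.10 with array weights) and the second Loxl1 probe set (0.0317 with a pseudocount of 50). Larger differences turned too when 1 array was left out: Emilin1 in brain cells (-0.24, without H), Fbln5 in brain cells (0.17, without D) and, in the difference of effects, Emilin1 (-0.30) and the third Fbln1 probe set (0.18, both without H). With single arrays left out, brain differences spanned -0.0171 to 0.28 for Fbln5, -0.38 to 0.0760 for Loxl1 and -0.62 to 0.0678 for Emilin1. Aorta differences spanned -0.14 to 0.18 for Eln, -0.17 to 0.14 and -0.0900 to 0.10 for the brighter Fbln1 probe sets, -0.0710 to 0.15 for the second Fbln5 probe set, -0.0903 to 0.28 for Fbln2, -0.12 to 0.0285 for Mfap4, -0.14 to 0.37 for Emilin1, -0.10 to 0.0638 for Loxl1, and -0.00438 to 0.21 and -0.24 to 0.0572 for the brightest and dimmest Lox probe sets. The difference of effects spanned -0.13 to 0.14 and -0.0926 to 0.34 for the second and the third Fbln1 probe set, -0.0201 to 0.14 for Mfap4, -0.00839 to 0.26 for Lox, -0.0910 to 0.21 for Fbln5, -0.36 to 0.10 and -0.17 to 0.20 for the Loxl1 probe sets, -0.68 to 0.00952 for Emilin1 and -0.34 to 0.00208 for Eln. The cause of these turns was not tested.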
